A study of Mus musculus with 6 samples.

Results

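The genes described here are p53 with its direct regulators, p53 target genes and genes of the apoptotic machinery, taken as the rows of a deposited expression table whose symbol is on a list of 43. All 43 had a row, out of 24318 genes in the table. The samples were 6 RNA-seq libraries of CAD cells, 3 given an siRNA labelled si circGIGYF2 (siCircGigyf2) and 3 given a control siRNA labelled si NC (siNC). CAD is a mouse catecholaminergic neuronal line. It is a variant of the Cath.a line, which came from a brain tumour of a mouse carrying the T antigen of simian virus, a protein that binds p53, and CAD is described as having lost that antigen. No other treatment, genotype or time after transfection was given in the sources used here. Each library was made from total RNA depleted of ribosomal RNA, and expression was given as FPKM (fragments scaled by transcript length and by library size). CircGigyf2 is a circular RNA formed from exons of Gigyf2, and the comparison asks which RNAs differ when it is targeted.

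The p53 protein, encoded by Trp53, is a transcription factor that is held low by the ubiquitin ligase Mdm2 and its partner Mdm4 and accumulates after DNA damage and other stress. Its targets halt the cell cycle, aid repair or promote cell death. In the mitochondrial route of apoptosis, BH3-only proteins sense stress, pro-survival BCL2 proteins bind and restrain them, and the effectors Bax and Bak1 permeabilise the outer mitochondrial membrane. Released cytochrome c then assembles Apaf1 and caspase 9 into the apoptosome, while IAP proteins (inhibitors of apoptosis) block caspases and Diablo antagonises IAPs. Much of p53 control is exerted on protein stability and location, which RNA levels do not show.

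Absolute depth was not given, but the steps between low FPKM values gave a relative depth of 0.839, 0.913 and 0.802 for the siCircGigyf2 libraries and of 1.0, 0.979 and 0.953 for the siNC libraries. All siCircGigyf2 libraries were thus shallower, and the part of this difference in the results was not tested. Gigyf2, the host gene, averaged 21.4 ± 0.33 FPKM in siCircGigyf2 and 23.2 ± 0.075 FPKM in siNC libraries (SD, n = 3 each), a log2(FPKM + 1) difference of -0.11 (limma adjusted p = 0.0287). That row pools linear and circular molecules, and leaving out any single library except siCircGigyf2 replicate 1 ended the call (adjusted p from 0.0659 to 0.0845). The 10 markers of catecholaminergic neuronal identity summed to 458 to 475 FPKM in siCircGigyf2 and 404 to 413 FPKM in siNC libraries, with none at 0 throughout. By limma, 2 of them rose (Tubb3, adjusted p = 3.7e-05, and Hand2, 0.0013) and 3 fell (Gata2, 0.0046, Phox2a, 0.023, and Dbh, 0.043), and the part of these differences in the results was not tested. Of the rest, Th, the rate-limiting enzyme of catecholamine synthesis, was low (2.82 to 3.77 FPKM in siCircGigyf2 and 3.53 to 4.85 FPKM in siNC libraries), and Ddc, the next enzyme, did not exceed 0.492 FPKM. The 4 astrocyte, 4 oligodendrocyte and 5 microglia and leukocyte markers each summed to at most 1.19 FPKM in each siCircGigyf2 library and 1.1 FPKM in each siNC library, list by list, with 2, 1 and 1 of them at 0 throughout. Fibroblast markers summed to 3.70 to 4.13 FPKM in siCircGigyf2 and 3.4 to 4.1 FPKM in siNC libraries, with Col1a2 at 0. Among them, Col1a1 rose, at 1.47 ± 0.198 FPKM in siCircGigyf2 and 0.924 ± 0.116 FPKM in siNC libraries (SD, n = 3 each; limma adjusted p = 0.018), while Pdgfra did not pass (1.83 FPKM in siCircGigyf2 and 2.03 FPKM in siNC libraries) and Dcn was below the limit for testing (0.633 FPKM in siCircGigyf2 and 0.857 FPKM in siNC libraries). Endothelial markers summed to 5.90 to 7.13 FPKM in siCircGigyf2 and 5.94 to 6.89 FPKM in siNC libraries, nearly all of it Pecam1. In bulk RNA, fewer cells of one kind and less RNA per cell cannot be told apart.

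Many genes of the set differed between the groups, in both directions and by less than 1.5-fold. Of the 43 genes, 37 reached a mean of 1 FPKM over the 6 libraries and were tested. By a limma adjusted p of 0.05 over all 11420 genes tested, 13 rose, 11 fell and 13 did not pass. The share that passed was 64.9%, where 38.2% of all genes tested passed (19.5% higher and 18.7% lower). With a filter of 5 FPKM, nearer the levels of the set, 3937 of 8677 genes passed. The set was chosen with earlier results of these data known, so its share was not tested against either background. FPKM of the 2 groups did not overlap for 27 of the 37, against 51.0% of all genes tested. Ratios of group means among the 24 genes that passed lay between 0.743 (Casp2) and 1.42 (Ccng1). The median log2 difference over the 37 genes was 0.057, beside 0.00035 over all genes tested. Levels of the 37 genes ran from 3.89 FPKM (Gadd45a) to 49.5 FPKM (Mdm2) as the mean of the 6 libraries, so none was close to the limit of 1 FPKM.

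**Figure D1:**
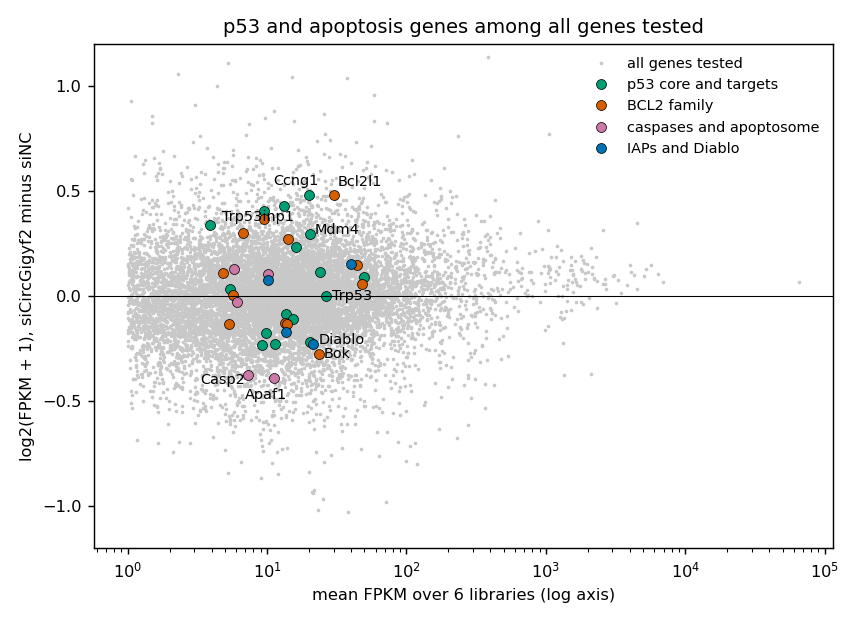
Mean FPKM over the 6 libraries (log axis) against the difference of log2(FPKM + 1), siCircGigyf2 minus siNC, for all genes tested (grey) and the 37 tested genes of the set (coloured by role). The coloured points lie within 0.49 of 0 on both sides, and 10 genes with differences beyond 1.2 in size are not drawn.

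Trp53 itself did not pass the test, while Mdm4 rose. Trp53 had 25.3, 28.1 and 25.8 FPKM in the siCircGigyf2 libraries, against 27.3, 26.9 and 24.9 FPKM in the siNC libraries. The groups overlapped, with a log2 difference of 0.0014 (SE 0.050, limma adjusted p = 0.985). Mdm2, the ligase that marks p53 for degradation and is itself a p53 target, was the most abundant gene of the set. It had 53.6, 50.6 and 49.0 FPKM in siCircGigyf2 libraries, against 45.9, 48.4 and 49.3 FPKM in siNC libraries, a log2 difference of 0.09 (SE 0.042, adjusted p = 0.123) with overlap between the lowest siCircGigyf2 and the highest siNC library. Mdm4, which binds the p53 transactivation domain and restrains it, had 23.5, 22.4 and 22.1 FPKM in siCircGigyf2 libraries, against 17.9, 19.2 and 17.8 FPKM in siNC libraries. All siCircGigyf2 values lay above all siNC values, with a ratio of means of 1.24 (log2 rise 0.29, SE 0.043, limma adjusted p = 0.00086).

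The p53 target genes were divided. Of 16 listed, 13 were tested, of which 6 rose, 4 fell and 3 did not pass (76.9% called, beside 38.2% of all genes tested). Those that rose were Ccng1, Trp53inp1, Phlda3, Gadd45a, Sesn3 and Sesn1, and those that fell were Zmat3, Ei24, Plk3 and Rrm2b. Among all genes tested, 3.35% had a larger difference than Ccng1 and 5.05% a larger one than Trp53inp1.

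Ccng1 encodes cyclin G1, which recruits a phosphatase to Mdm2 and is a classic p53 target. It had 24.6, 21.7 and 24.2 FPKM in siCircGigyf2 libraries, against 16.5, 16.9 and 16.2 FPKM in siNC libraries. The lowest siCircGigyf2 library was above the highest siNC library by more than the range within the siNC group, and the rise in log2 was 0.48 (SE 0.051, limma adjusted p = 0.00017). Trp53inp1, a stress-induced nuclear protein that promotes p53-dependent arrest and death, had 16.2, 14.8 and 15.2 FPKM in siCircGigyf2 libraries, against 11.1, 11.2 and 11.3 FPKM in siNC libraries. The siNC libraries were nearly equal and all lower, for a log2 rise of 0.43 (SE 0.045, adjusted p = 0.00015).

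Phlda3 encodes a pleckstrin homology protein that competes with Akt for membrane lipid. It had 9.94, 11.9 and 11.0 FPKM in siCircGigyf2 libraries, against 7.42, 8.40 and 8.24 FPKM in siNC libraries (log2 rise 0.41, SE 0.070, limma adjusted p = 0.0021). Gadd45a, a growth arrest and DNA damage gene and the least abundant gene tested, had 4.25, 4.74 and 4.37 FPKM in siCircGigyf2 libraries, against 3.51, 3.61 and 2.86 FPKM in siNC libraries (log2 rise 0.34, SE 0.082, adjusted p = 0.011). Neither pair of groups overlapped. The sestrins are stress-induced inhibitors of mTORC1 signalling. Sesn3, better known as a FoxO target, had 18.9, 16.1 and 17.6 FPKM in siCircGigyf2 libraries, against 15.5, 14.4 and 14.4 FPKM in siNC libraries (log2 rise 0.23, SE 0.059, adjusted p = 0.014). Sesn1 had 24.3, 24.9 and 26.3 FPKM in siCircGigyf2 libraries, against 23.3, 23.3 and 22.7 FPKM in siNC libraries (log2 rise 0.12, SE 0.039, adjusted p = 0.0415). For Sesn1 the gap between the groups was small, and the gene did not pass after removal of any 1 library except siCircGigyf2 replicate 1 (adjusted p from 0.0644 to 0.125), with all genes above 0 included (0.0581) and without a variance trend (0.0662).

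The 4 targets that fell had groups that did not overlap, which held for 51.0% of all genes tested. Zmat3, an RNA-binding zinc finger protein that regulates splicing and mRNA stability, had 10.2, 10.6 and 10.4 FPKM in siCircGigyf2 libraries, against 12.8, 12.0 and 12.3 FPKM in siNC libraries (log2 difference -0.23, SE 0.044, limma adjusted p = 0.0034). Plk3, a polo-like kinase of the stress response, had 19.1, 18.1 and 19.2 FPKM in siCircGigyf2 libraries, against 22.0, 20.4 and 23.7 FPKM in siNC libraries (log2 difference -0.22, SE 0.054, adjusted p = 0.012). In both genes every siCircGigyf2 library was below every siNC library. Ei24, an endoplasmic reticulum protein first found as a p53-induced gene, had 8.19, 8.93 and 8.15 FPKM in siCircGigyf2 libraries, against 9.35, 9.87 and 11.1 FPKM in siNC libraries (log2 difference -0.23, SE 0.065, adjusted p = 0.021). Rrm2b, the p53-inducible small subunit of ribonucleotide reductase, had 9.15, 9.16 and 9.05 FPKM in siCircGigyf2 libraries, against 10.8, 9.80 and 10.7 FPKM in siNC libraries (log2 difference -0.18, SE 0.050, adjusted p = 0.021). The groups were apart, but the calls for Ei24 and Rrm2b did not hold in every leave-out. With 1 library left out, the log2 difference lay between -0.282 and -0.172 for Ei24 and between -0.218 and -0.153 for Rrm2b. Over all genes, 3521 to 3933 passed in these fits, in place of 4367. Ei24 did not pass without siCircGigyf2 replicate 1 or 3 or siNC replicate 3 (adjusted p from 0.063 to 0.0682) or with all genes above 0 included (0.056), and Rrm2b did not pass without siCircGigyf2 replicate 3 or siNC replicate 1 or 3 (0.0535 to 0.0771).

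The other 3 targets did not pass and their groups overlapped. Aen, an apoptosis-enhancing nuclease, averaged 14.9 ± 1.14 FPKM in siCircGigyf2 and 16.1 ± 0.953 FPKM in siNC libraries (SD, n = 3 each). Polk, a translesion DNA polymerase, averaged 13.3 ± 0.762 FPKM in siCircGigyf2 and 14.1 ± 0.231 FPKM in siNC libraries, and the polo-like kinase gene Plk2 5.54 ± 0.226 FPKM in siCircGigyf2 and 5.39 ± 0.414 FPKM in siNC libraries. The limma adjusted p was 0.198 for Aen, 0.181 for Polk and 0.705 for Plk2.

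**Figure D2:**
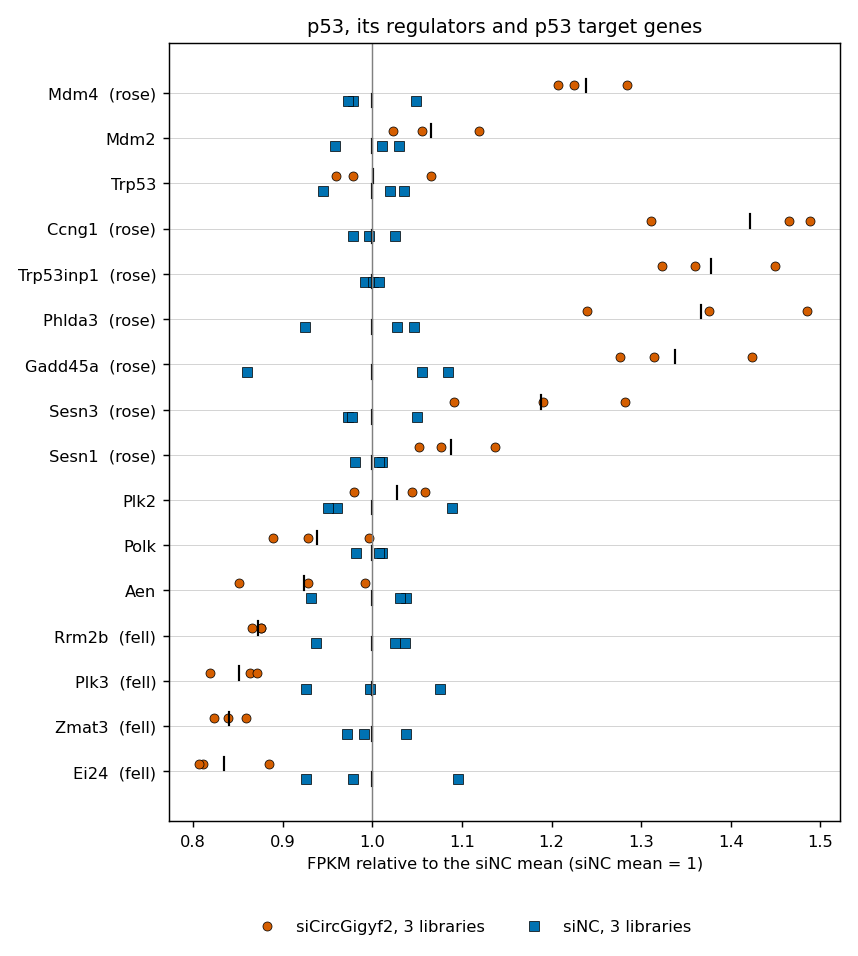
FPKM of each library divided by the siNC mean of the gene, for Trp53, Mdm2, Mdm4 and the 13 tested p53 targets; circles are siCircGigyf2 libraries, squares are siNC libraries and short vertical lines are group means (3 libraries each). Ccng1 and Trp53inp1 lie farthest to the right, with ratios of means of 1.42 and 1.38, and Ei24 farthest to the left at 0.834.

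The promoters of 3 genes with different outcomes are shown, because they hold the letters to which p53 binds. Windows of 300 bases, from 250 bases before to 50 bases after an annotated start, came from RefSeq on GRCm38.p6 and matched 36 of the 43 genes. They were searched for the consensus p53 decamer, which reads the same on both strands, and for 2 such decamers at most 1 base apart with at most 2 mismatches between them and the central C and G of each kept. An exact decamer was present for 11 of the 36 genes (30.6%), 8 of 14 in the p53 core and targets and 3 of 22 in the other genes, where 9.55% of 27025 genes had it. The paired site was present for 2 of the 36, Ccng1 and Bax, against 0.807% of all genes. Capitals mark the matching decamers.
Ccng1, chr11:40755237-40755536, minus strand: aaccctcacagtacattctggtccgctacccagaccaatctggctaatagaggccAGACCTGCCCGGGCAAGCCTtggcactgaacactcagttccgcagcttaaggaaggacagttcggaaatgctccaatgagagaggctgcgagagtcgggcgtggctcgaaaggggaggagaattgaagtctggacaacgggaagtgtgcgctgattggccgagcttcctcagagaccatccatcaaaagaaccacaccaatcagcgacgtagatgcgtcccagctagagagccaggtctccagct
Bax, chr7:45466849-45467148, minus strand: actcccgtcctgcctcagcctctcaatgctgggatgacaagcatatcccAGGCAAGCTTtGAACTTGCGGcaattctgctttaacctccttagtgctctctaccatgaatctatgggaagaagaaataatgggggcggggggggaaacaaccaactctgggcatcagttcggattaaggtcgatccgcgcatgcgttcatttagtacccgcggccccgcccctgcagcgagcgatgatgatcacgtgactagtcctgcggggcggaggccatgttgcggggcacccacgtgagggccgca
Ei24, chr9:36797285-36797584, minus strand: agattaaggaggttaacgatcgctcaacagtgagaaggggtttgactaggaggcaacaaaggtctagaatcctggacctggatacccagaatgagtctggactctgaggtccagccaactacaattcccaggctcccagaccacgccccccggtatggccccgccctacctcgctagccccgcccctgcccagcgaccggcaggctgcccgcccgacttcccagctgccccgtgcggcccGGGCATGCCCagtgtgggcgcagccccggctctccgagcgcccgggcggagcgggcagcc
The paired match began at position -195 from the start in Ccng1, which rose, and at -201 in Bax, which did not pass the test. Ei24, which fell, held 1 exact decamer beginning at -10. A match of letters is a description of the window and not a measured binding site.

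Of the 4 pro-survival BCL2 genes, 3 rose. Bcl2l1, which encodes Bcl-xL and, by alternative splicing, the pro-death form Bcl-xS, had 37.1, 36.1 and 33.2 FPKM in siCircGigyf2 libraries, against 27.0, 24.3 and 24.0 FPKM in siNC libraries. The groups were far apart relative to their spread, with a ratio of means of 1.41 (log2 rise 0.48, SE 0.055, limma adjusted p = 0.00024). This was the largest difference of the 37 genes on that scale, exceeded by 3.33% of all genes tested. The table gives 1 value per gene, so the splice forms cannot be told apart.

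Bcl2l2, which encodes Bcl-w, a pro-survival protein prominent in neurons, had 16.1, 15.2 and 15.5 FPKM in siCircGigyf2 libraries, against 12.7, 12.5 and 13.1 FPKM in siNC libraries (log2 rise 0.27, SE 0.041, limma adjusted p = 0.00098). Mcl1, a short-lived pro-survival protein, had 47.4, 46.7 and 45.4 FPKM in siCircGigyf2 libraries, against 41.6, 42.1 and 41.8 FPKM in siNC libraries (log2 rise 0.15, SE 0.030, adjusted p = 0.0046). Neither pair of groups overlapped. Bcl2, the founding member, was the least abundant of the 4 and did not pass, at 5.19, 5.73 and 6.35 FPKM in siCircGigyf2 libraries, against 5.77, 5.93 and 5.47 FPKM in siNC libraries (log2 difference 0.0043, SE 0.071, adjusted p = 0.968).

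Among the 3 effectors, Bok and Bak1 fell and Bax did not pass. Bax was by far the most abundant and had 49.6, 51.9 and 46.5 FPKM in siCircGigyf2 libraries, against 48.7, 48.4 and 45.01 FPKM in siNC libraries (log2 difference 0.057, SE 0.047, limma adjusted p = 0.368), with overlapping groups. Bok, an effector-like protein that is regulated by degradation, had 21.7, 20.6 and 21.6 FPKM in siCircGigyf2 libraries, against 26.5, 24.6 and 27.1 FPKM in siNC libraries (log2 difference -0.28, SE 0.044, adjusted p = 0.0014). All Bok values in siCircGigyf2 libraries were below all siNC values. Bak1 had 12.4, 12.8 and 13.3 FPKM in siCircGigyf2 libraries, against 14.3, 13.9 and 14.2 FPKM in siNC libraries (log2 difference -0.13, SE 0.042, adjusted p = 0.0389). The Bak1 groups did not overlap, but it no longer passed after removal of any 1 library except siCircGigyf2 replicate 3 (adjusted p from 0.0651 to 0.109) or with all genes above 0 included (0.0531).

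BH3-only genes moved in both directions, with 2 rising, 1 falling and 2 not passing among the 5 tested. Bad, whose binding to Bcl-xL is blocked by growth factor signalling, had 9.22, 11.7 and 11.7 FPKM in siCircGigyf2 libraries, against 6.95, 9.21 and 8.43 FPKM in siNC libraries (log2 rise 0.37, SE 0.108, limma adjusted p = 0.025). The lowest siCircGigyf2 value and the highest siNC value nearly touched. Its exons share 524 bases with Gpr137 on the opposite strand (6.56 FPKM), and strand handling was not given, so the value is uncertain. Bbc3, which encodes the p53-induced killer Puma, had 6.64, 8.94 and 7.04 FPKM in siCircGigyf2 libraries, against 5.91, 6.18 and 5.62 FPKM in siNC libraries (log2 rise 0.30, SE 0.093, adjusted p = 0.033). Replicate 2 stood above the other siCircGigyf2 libraries, and without it the log2 rise was 0.184 (adjusted p = 0.0568). Bmf, a BH3-only protein bound to the myosin motor complex, had 13.1, 13.6 and 12.6 FPKM in siCircGigyf2 libraries, against 14.5, 14.8 and 14.2 FPKM in siNC libraries (log2 difference -0.14, SE 0.043, adjusted p = 0.036).

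None of these 3 BH3-only calls held in every leave-out. Bad did not pass without siCircGigyf2 replicate 2 or 3 or siNC replicate 1 (limma adjusted p from 0.0733 to 0.0816), Bbc3 without siCircGigyf2 replicate 2 or any siNC library (0.0531 to 0.0932), and Bmf without any library but siCircGigyf2 replicate 2 (0.0579 to 0.106). With all genes above 0 included, none of the 3 passed (0.0528 to 0.0911). Over the whole family, 8 of 12 tested genes passed (66.7%), beside 38.2% of all genes tested. The count was 5 with all genes above 0 included. It was 5 without siCircGigyf2 replicate 2, 4 without siNC replicate 1 and 5 without siNC replicate 2 or 3. Bcl2l11, which encodes Bim, was a little higher in every siCircGigyf2 library (4.77 to 5.43 FPKM, against 4.50 to 4.65 FPKM in siNC) but did not pass (adjusted p = 0.178). Bid, the link from death receptors to mitochondria, averaged 5.02 ± 0.631 FPKM in siCircGigyf2 and 5.59 ± 0.272 FPKM in siNC libraries (adjusted p = 0.214). Bid passed without siCircGigyf2 replicate 3 (log2 difference -0.218, adjusted p = 0.0353). Its exons share 628 bases with Bcl2l13 on the opposite strand (10.9 FPKM, above the level of Bid), so its value is uncertain as well.

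**Figure D3:**
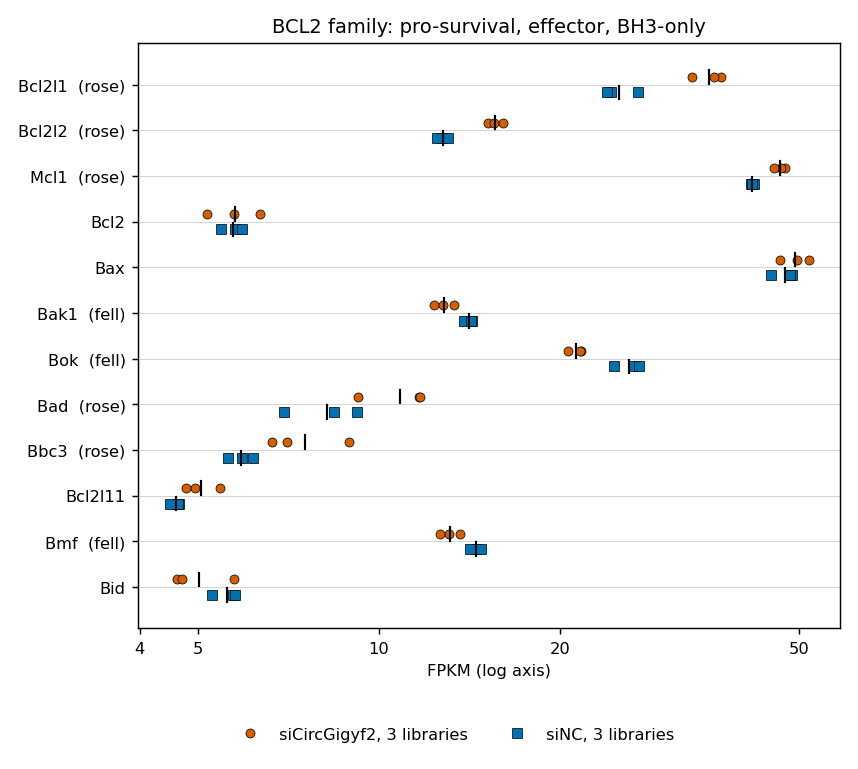
FPKM per library (log axis) of the 12 tested BCL2 family genes, from top to bottom 4 pro-survival, 3 effector and 5 BH3-only genes; circles are siCircGigyf2 libraries, squares are siNC libraries and short vertical lines are group means (3 libraries each). Bcl2l1, Bcl2l2 and Mcl1 lie to the right of their siNC values, Bok and Bak1 to the left.

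Since FPKM are per transcript length, levels may be summed across genes. Over all genes, FPKM summed to 604881 to 624645 in siCircGigyf2 and 578627 to 601552 in siNC libraries. The total was thus higher in every siCircGigyf2 library, and the part of this in the sums below was not tested. The 4 pro-survival genes summed to 105.7, 103.8 and 100.5 FPKM in siCircGigyf2 libraries, against 87.1, 84.9 and 84.3 FPKM in siNC libraries. The 3 effectors summed to 83.7, 85.3 and 81.5 FPKM in siCircGigyf2 libraries, against 89.5, 86.8 and 86.3 FPKM in siNC libraries. Neither sum overlapped between groups, and they moved in opposite directions. The lower effector sum rested mainly on Bok, which averaged 21.3 FPKM in siCircGigyf2 and 26.05 FPKM in siNC libraries. Bak1 contributed less (12.8 FPKM in siCircGigyf2 and 14.1 FPKM in siNC libraries). Mean Bax was not lower (49.3 FPKM in siCircGigyf2 and 47.4 FPKM in siNC libraries). The pro-survival sum divided by the effector sum was 1.26, 1.22 and 1.23 in siCircGigyf2 libraries, against 0.974, 0.978 and 0.977 in siNC libraries. These sums are descriptions of chosen genes and carry no test. The 7 BH3-only genes summed to 39.1 to 44.1 FPKM in siCircGigyf2 and 38.3 to 41.0 FPKM in siNC libraries, which overlapped. Bcl2l1 made up 34.3% ± 1.11 of the pro-survival sum in siCircGigyf2 and 29.4% ± 1.42 in siNC libraries (SD, n = 3 each). The ratio of Bcl2l1 to Bax was 0.719 ± 0.026 in siCircGigyf2 and 0.530 ± 0.026 in siNC libraries.

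**Figure D4:**
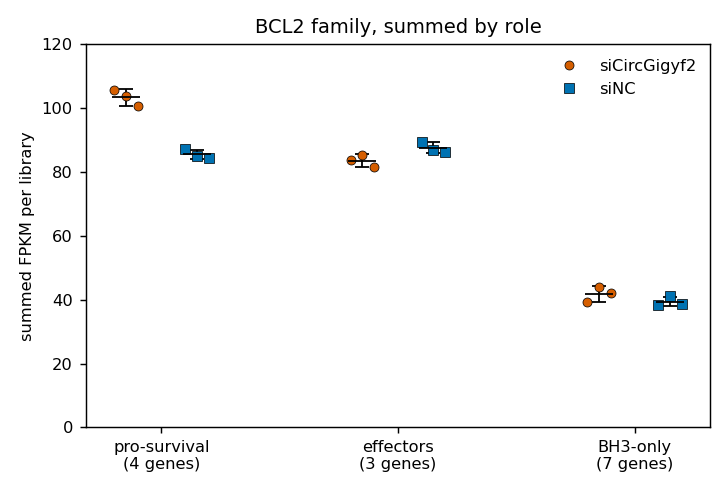
Summed FPKM per library of the BCL2 family by role, with siCircGigyf2 (circles) left of siNC (squares); horizontal bars are means and whiskers are SD over 3 libraries. The pro-survival sums of the siCircGigyf2 libraries sit between 100.5 and 105.7, above the siNC libraries at 84.3 to 87.1.

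Of the apoptosome and caspase genes, Apaf1 and Casp2 fell and 3 caspases did not pass (40% called, beside 38.2% of all genes tested). Apaf1, the scaffold of the apoptosome, had 9.75, 8.98 and 9.996 FPKM in siCircGigyf2 libraries, against 12.7, 13.1 and 12.7 FPKM in siNC libraries (log2 difference -0.39, SE 0.049, limma adjusted p = 0.0004). Casp2, the caspase activated by the PIDDosome, had 6.25, 6.53 and 5.94 FPKM in siCircGigyf2 libraries, against 8.54, 8.03 and 8.63 FPKM in siNC libraries (log2 difference -0.38, SE 0.054, adjusted p = 0.00078). The ratios of means were close, 0.746 for Apaf1 and 0.743 for Casp2, and no siCircGigyf2 library reached an siNC value. Among all genes tested, 7.02% had a larger difference than Apaf1 and 7.62% a larger one than Casp2.

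The initiators Casp9 and Casp8 were slightly higher in all siCircGigyf2 libraries without passing. Casp9, the apoptosome caspase, had 10.3, 10.6 and 10.9 FPKM in siCircGigyf2 libraries, against 9.90, 9.83 and 9.68 FPKM in siNC libraries (log2 difference 0.11, limma adjusted p = 0.0811). Casp8, the caspase of death receptors, had 6.21, 6.14 and 5.97 FPKM in siCircGigyf2 libraries, against 5.38, 5.38 and 5.74 FPKM in siNC libraries (log2 difference 0.13, adjusted p = 0.0837), and passed after quantile normalization (0.0441) and without a variance trend (0.0415). Casp6, an executioner caspase also studied in axon degeneration, averaged 6.0 ± 0.799 FPKM in siCircGigyf2 and 6.10 ± 0.120 FPKM in siNC libraries (adjusted p = 0.827), with siCircGigyf2 replicate 1 below all the others.

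The IAP group, with Diablo, was mixed as well, and 3 of its 4 tested genes were called (75%, beside 38.2% of all genes tested). Birc6, a giant IAP that also ubiquitinates its substrates, had 42.4, 42.98 and 42.1 FPKM in siCircGigyf2 libraries, against 37.8, 38.2 and 38.5 FPKM in siNC libraries (log2 rise 0.15, SE 0.029, limma adjusted p = 0.0037). Xiap, the IAP that inhibits caspases directly, had 13.0, 12.1 and 13.3 FPKM in siCircGigyf2 libraries, against 14.3, 14.8 and 14.5 FPKM in siNC libraries (log2 difference -0.17, SE 0.045, adjusted p = 0.0167). Leaving out siNC replicate 2 ended the Xiap call (adjusted p = 0.056). Diablo, the mitochondrial antagonist of IAPs, had 20.2, 19.9 and 18.8 FPKM in siCircGigyf2 libraries, against 23.4, 23.0 and 23.2 FPKM in siNC libraries (log2 difference -0.23, SE 0.038, adjusted p = 0.0016). All 3 pairs of groups were apart, Birc6 upward and Xiap and Diablo downward. Diablo shares 1326 exon bases with B3gnt4 on the opposite strand, a gene at 0.62 FPKM, and 1193 with Gm49027 on its own strand, a gene without a row in the table, so reads of Diablo and Gm49027 cannot be told apart there. Likewise, Bcl2l2 shares 594 exon bases with Gm20521 and Bax 192 with Gm45808 on the same strand, neither of which has a row. On the opposite strand, Rrm2b shares 734 exon bases with Gm49085, Birc6 611 with Gm26749, Bcl2 558 with D630008O14Rik and Ei24 324 with Gm26787. These partners have no row either, and strand handling was not given, so the values of these genes are uncertain too. Birc2, which encodes the signalling IAP cIAP1, averaged 10.5 ± 0.324 FPKM in siCircGigyf2 and 9.88 ± 0.565 FPKM in siNC libraries (SD, n = 3 each) and did not pass (adjusted p = 0.267).

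**Figure D5:**
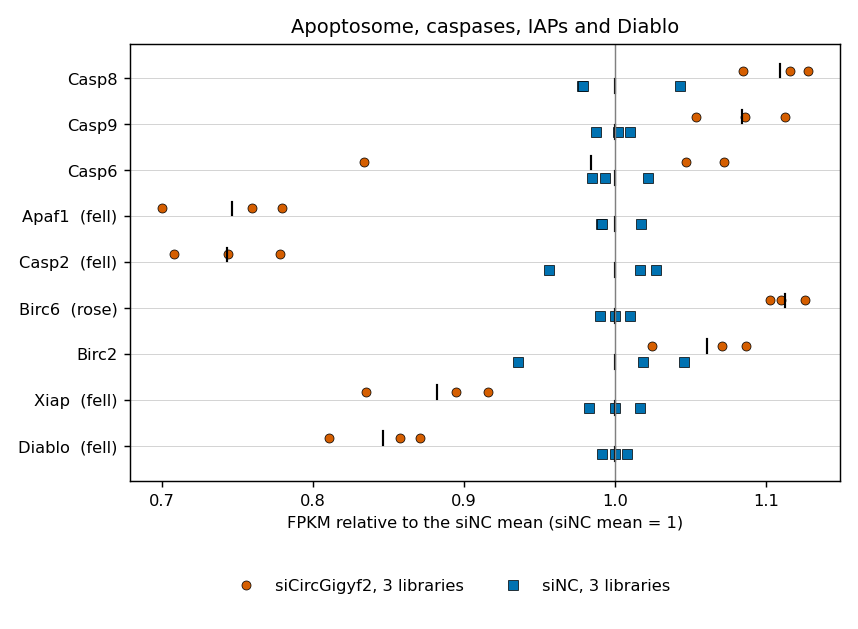
FPKM of each library divided by the siNC mean of the gene, for Apaf1, 4 caspases, 3 IAP genes and Diablo; circles are siCircGigyf2 libraries, squares are siNC libraries and short vertical lines are group means (3 libraries each). Apaf1 and Casp2 lie farthest to the left, at means of 0.746 and 0.743, and Birc6 to the right, at 1.11.

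The other 6 genes fell short of the limit of 1 FPKM and were not tested. Pmaip1, which encodes the p53-induced BH3-only protein Noxa, was listed at 0 in all 6 libraries. Both death receptor genes were at or near 0, with Fas at no more than 0.043 FPKM and Tnfrsf10b at no more than 0.085 FPKM in any library. Birc3, which encodes cIAP2, did not exceed 0.31 FPKM. Perp, a p53 target of desmosomes, had 0.760, 0.390 and 0.159 FPKM in siCircGigyf2 libraries, against 1.096, 0.493 and 0.937 FPKM in siNC libraries, and varied widely within both groups. Bik, a BH3-only gene of the endoplasmic reticulum, had 0.15, 0.137 and 0.078 FPKM in siCircGigyf2 libraries, against 0.565, 0.444 and 0.661 FPKM in siNC libraries. The Bik groups did not overlap at this low level, and with all genes above 0 in the test it fell by 0.47 on the log2(FPKM + 1) scale (limma adjusted p = 0.00248).

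Of the 37 tested genes, 6 carry the letters GCCTACA in an annotated 3' UTR, a 7-base site that was picked from these same differences in an earlier analysis of the table. The sites are shown because the genes that hold the site include some that rose and some that fell. The longest coding transcript of each gene in GENCODE M21 (GRCm38), sense strand, was searched. Capitals mark the site, with up to 10 bases on each side.
Sesn3: gcaagtgcacGCCTACAcgatagtaag
Zmat3: ccacagagctGCCTACAgagctttgtg
Bbc3: gtGCCTACAcccgcccggg
Bid: agccgccacaGCCTACAagtattctag
Bcl2: aggagcaggtGCCTACAagaaagcctg
Xiap: atcccagaatGCCTACAtgaaacagga
Zmat3 and Xiap fell, Sesn3 and Bbc3 rose, and Bid and Bcl2, in which a further A follows the 7 bases, did not pass. The site was thus in 6 of 37 tested genes of the set (16.2%), of which 2 rose and 2 fell, and in 766 of 10565 tested genes searched (7.25%), of which 105 rose and 289 fell. The median log2 difference was -0.065 for the 6 genes and 0.078 for the 31 without the site, beside -0.097 and 0.0048 for all tested genes with and without it. The 31 genes without these letters in the UTR searched included 11 that rose and 9 that fell. The UTRs of the 6 genes ran from 971 (Bbc3) to 7395 bases (Sesn3). UTR length was not taken into account in the shares of genes with the site. Nothing was tested here.

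Other genes of the same pathways gave counts near the background. Of 22 further p53 targets tested, 6 rose and 3 fell (40.9% called, beside 38.2% of all genes), with a median log2 difference of -0.068. Btg2, an antiproliferative gene, averaged 23.5 ± 1.13 FPKM in siCircGigyf2 and 14.5 ± 0.40 FPKM in siNC libraries (SD, n = 3 each; limma adjusted p = 2.47e-05). Sesn2, the third sestrin, averaged 10.5 ± 0.488 FPKM in siCircGigyf2 and 7.83 ± 0.752 FPKM in siNC libraries (adjusted p = 0.0021). All 3 sestrins thus rose, although the Sesn1 call was lost in 8 of 14 alternatives (limma adjusted p up to 0.125). Cdkn1a, which encodes the cell cycle inhibitor p21, averaged 34.9 ± 1.64 FPKM in siCircGigyf2 and 30.4 ± 1.63 FPKM in siNC libraries (adjusted p = 0.0122), and Triap1, a small p53-induced survival factor, 19.1 ± 0.461 FPKM in siCircGigyf2 and 15.8 ± 1.32 FPKM in siNC libraries (adjusted p = 0.0072). With all genes above 0 included, 5 of the further targets passed in place of 9.

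Of 20 regulators of p53 tested, 3 rose and 4 fell (35.0% called, or 3 genes in all without siNC replicate 1). Cdkn2a, whose Arf product sequesters Mdm2, averaged 106 ± 5.87 FPKM in siCircGigyf2 and 80.6 ± 2.55 FPKM in siNC libraries (SD, n = 3 each; limma adjusted p = 0.00019). The row also counts p16, its other product. Trp53bp1, a DNA damage adaptor, averaged 23.3 ± 0.511 FPKM in siCircGigyf2 and 28.7 ± 0.598 FPKM in siNC libraries (adjusted p = 0.00032), the deacetylase gene Hdac1 31.0 ± 1.11 FPKM in siCircGigyf2 and 38.3 ± 0.801 FPKM in siNC libraries (adjusted p = 0.00035), and the checkpoint kinase gene Chek2 2.95 ± 0.153 FPKM in siCircGigyf2 and 3.77 ± 0.325 FPKM in siNC libraries (adjusted p = 0.0172, and 0.0662 after removal of siNC replicate 1).

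Of 28 other apoptosis genes tested, 4 rose and 5 fell (32.1% called). Bag1, a co-chaperone that binds Bcl2, averaged 32.8 ± 1.53 FPKM in siCircGigyf2 and 43.5 ± 2.14 FPKM in siNC libraries (SD, n = 3 each; limma adjusted p = 0.00027). Vdac1, a channel of the outer mitochondrial membrane, averaged 406 ± 6.56 FPKM in siCircGigyf2 and 350.2 ± 2.02 FPKM in siNC libraries (adjusted p = 0.00048), and the BH3-like mitophagy gene Bnip3 452 ± 30.0 FPKM in siCircGigyf2 and 346 ± 11.5 FPKM in siNC libraries (adjusted p = 0.00044). Cytochrome c (Cycs), which passes the outer membrane to start the apoptosome, averaged 36.6 ± 2.04 FPKM in siCircGigyf2 and 34.6 ± 2.21 FPKM in siNC libraries and did not pass (adjusted p = 0.267), and was named after its value was seen.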

How the data were processed

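The study's data here are 6 RNA-seq libraries of CAD cells, grouped by the treatment label, with replicate numbers from the sample titles. The authors deposited FPKM for each library in a single table keyed by gene symbol. The submitters' processing notes name the mm9 build. The aligner, quantifier, annotation and handling of strand are not given in the sources used here. No label ties the libraries to separate cultures, so p-values cover the spread between these samples, possibly a technical one. Count models were not applied to FPKM. Relative depth came from the commonest ratio of values under 0.3 FPKM. Of values above 0 in both libraries of a pair, at most 0.0068% were exactly equal, so none was treated as a repeat.

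Genes with a mean of at least 1 FPKM entered a limma 3.58.1 fit (R 4.3.3) of log2(FPKM + 1) (2 groups, mean-variance trend, two-sided, Benjamini-Hochberg over all genes tested, threshold 0.05), and differences are siCircGigyf2 minus siNC on that scale, which understates changes of low values. The fit was checked on simulated data with independent noise and known changes in a small share of genes. That check does not cover data in which many genes differ, as here. The genes, the lists of related genes and the named-gene rule (every gene of the set, up to 4 passing genes with the smallest p from each related list, Gigyf2) were chosen with earlier results of these data known, so no list test was made. A gene that the rule names is not reported here. Exon overlaps and 3' UTRs came from GENCODE M21 and promoters from RefSeq, both on GRCm38, joined by symbol (1 symbol by synonym), and served no comparison of coordinates with mm9. Sequence steps used Python 3.11.15 with pandas 2.3.3. Alternatives were another pseudocount (0.1), no filter, a filter of 5 FPKM, scaling by median of ratios or by quantiles, a replicate block, no trend, robust empirical Bayes and leaving out each library.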

Additional observations from a re-analysis of the deposited data

How the results depend on the processing

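Of the 24 genes of the set that passed, 16 kept the call under every one of the 14 alternatives they were run in (Gadd45a could not be run with the filter of 5 FPKM, nor could Bcl2l11 among the others) and all kept their direction; the exceptions are Sesn1, Ei24, Rrm2b, Bak1, Bbc3, Bad, Bmf and Xiap, whose adjusted p reached 0.056 to 0.125. The 13 that did not pass stayed so except Bid and Casp8. Over all genes, 3767 to 4423 passed in settings that kept all libraries and 3521 to 3933 with 1 left out, and both scalings left the median over all genes within 0.001 of 0.

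The BCL2 family count of 8 was 5 without a filter on low values and ranged from 4 to 7 with 1 library left out; the further p53 targets gave 5 in place of 9 without a filter, and the p53 regulators 3 to 6 in place of 7 with 1 library left out. Leaving out 1 library changed the sign of differences that had not passed, with Trp53 between -0.0425 (without siCircGigyf2 replicate 2) and 0.03 (negative also without siNC replicate 3, -0.0374), Bcl2 between -0.0582 (without siCircGigyf2 replicate 3) and 0.0661 (negative also without siNC replicate 3, -0.023), and Casp6 between -0.0827 and 0.0721 (positive without siCircGigyf2 replicate 1). The cause was not tested. The Gigyf2 log2 difference ranged from -0.121 to -0.1 in the leave-one-out fits.

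Deviations of same-numbered libraries from their group means correlated at 0.163, -0.0208 and 0.00253. Differently numbered libraries gave -0.119 to 0.131. Deviations from a mean of 3 libraries cancel within the group, so these values depend on each other. Whether the numbers pair the samples was not tested. With the replicate block, 3973 genes passed in place of 4367, and Sesn1 (adjusted p = 0.0781), Bak1 (0.0688) and Gigyf2 (log2 difference -0.109, adjusted p = 0.0598) did not pass. The ratio of pro-survival to effector sums, recomputed in settings chosen after seeing the data, differed between groups by 0.249 to 0.273, against 0.262 as reported.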
